A study of Drosophila melanogaster with 10 samples.

Results

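The 26S proteasome is the protease that destroys proteins tagged with ubiquitin, and 30 genes of its subunits were examined out of 7624 genes measured in ML-DmBG3-c2, a cultured Drosophila line of larval central nervous system origin. They are all genes whose symbol in the authors' table begins with Prosalpha, with Prosbeta, or with Pros, Rpn or Rpt followed by a digit, a choice by name that uses no measured value. Nascent RNA was isolated from chromatin, and the series holds 3 libraries labelled Ph RNAi, 4 labelled Sce RNAi and 3 labelled as mock RNAi. The RNAi groups received double-stranded RNA targeting Polyhomeotic (Ph) or Sce, the fly homolog of RING1, both subunits of Polycomb repressive complex 1 (PRC1), and all groups are cells of 1 line. The values are the authors' mean signal of each group per gene, in signal units that they had brought to a common total, together with their ratio to mock, p and q. No value per library is in the table, so means carry no SD or other error, and replicate spread enters only through the authors' q. The authors' table also gives total RNA ratios with p and q after RNAi of Ph, Sce and Pc, which come from libraries outside these 10, Pc being the chromodomain subunit of PRC1. Only genes with an authors' q under 0.05 are described as having risen or fallen.

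The proteasome has a barrel-shaped core particle of stacked rings, with alpha subunits in the outer rings, which gate the entry, and beta subunits in the inner rings, of which beta1, beta2 and beta5 carry the proteolytic sites. A regulatory particle caps the barrel: its base holds a ring of Rpt ATPases that unfold substrates and thread them into the core, and its Rpn subunits bind, hold and deubiquitinate them. The subunits are needed together in the assembled particle, and their genes are active in most cell types.

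The table spells several subunits by older symbols, which RefSeq synonyms pair with the current ones. Pros25, Pros29, Pros28.1 and Pros35 encode alpha2, alpha3, alpha4 and alpha6, Pros26 encodes beta6, Pros26.4 and Pros45 encode Rpt2 and Rpt6, and Pros54 encodes Rpn10. With these names resolved, the 30 genes comprise all 7 alpha subunits, 6 beta subunits, 7 genes of Rpt ATPases and 10 Rpn subunits. Among the ATPases, Rpt3R and Rpt6R are additional copies of Rpt3 and Rpt6, known in Drosophila from the testis, so 28 of the 30 are canonical subunits. All 30 had a mean nascent signal over the 3 groups above 581 units, a mark set at the 10th percentile of all nascent means, as did 6942 of the 7624 genes, called measurable here.

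The genes targeted by RNAi were higher, not lower, under their own labels: ph-p and ph-d were 4.87 and 5.39 times mock in nascent RNA, Sce was 118 times mock, and Pc was 21.5 times mock in total RNA, in the authors' deposited table. The q listed with these ratios were 0.012, 0.053, 0.377 and 0.13 in that order, so of these only ph-p passed 0.05. In total RNA ph-p and ph-d were 8.64 and 8.09 times mock after Ph RNAi, with q of 0.017 and 0.028. Sce was 27.0 times mock in total RNA after Sce RNAi, with a q of 0.198. Groups are therefore called by their labels, and each direction below rests on those labels. Of the marker genes of the labelled tissue, elav had mean signals of 10858 (labelled Ph RNAi), 8989 (labelled Sce RNAi) and 9594 (mock), while nSyb, Syt1 and brp have no row in the table used here. Summed over the 4 listed glial markers in the table the signal was 224563, 119745 and 98085 in the same order, and over 6 blood cell markers, led by the collagen genes vkg and Cg25C, it was 1398060, 4124903 and 3571148. Of the blood markers, lz, at 2909, 674 and 239, and Hml, at 378, 195 and 271, were above mock after Ph RNAi. The others, srp, Pxn, vkg and Cg25C, were below it. After Sce RNAi Hml and Pxn, the latter at 49579 against 52069, were below mock, and lz, srp, vkg and Cg25C were above it. Of the glial markers, moody, at 37271, 45707 and 41864, was below mock after Ph RNAi, and repo, nrv2 and loco were above it. After Sce RNAi repo, with 41380, 1619 and 2890 in the same order, was below mock, and moody, nrv2 and loco were above it. For 3 of 6 listed neural stem cell markers the sums were 129326, 51595 and 33811, mostly from insc and pros. The other listed ones, dpn, ase and wor, have no row. For 4 neuronal markers the sums were 516408, 616061 and 888697. For 2 of 4 listed muscle markers, nearly all of it Mef2, they were 168014, 191918 and 202376, and for 2 of 4 germ line markers 1517, 2720 and 2416. The neuronal sum was carried by CadN, with 415033, 583322 and 863517, while elav, Nrg, at 83623, 17356 and 12418, and futsch, at 6894, 6394 and 3168, were higher under the label Ph RNAi than in mock. The part of all these markers in the proteasome values was not tested, and in bulk RNA a changed number of cells of a type and a changed RNA level per cell cannot be told apart.

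Proteasome genes were transcribed strongly for their size in mock cells. Divided by the length of the gene model in the BDGP6 annotation of Ensembl release 115, which may not be the one the authors used, their mock signal had a median of 5274 units per 1000 bases, against 1765 over the 6843 measurable genes with a gene model. Of the 30 members, 29 lay above that overall median, 24 in the top 25% and 12 in the top 10%. Their median percentile was 86.7, and it was 58.4 without division by length. The 83 measurable cytoplasmic ribosomal protein genes with a gene model had a median percentile of 97.9 per length. The proteasome genes are short, with a median model length of 1390 bases and 25 of 30 under 2000 bases, against a median of 3035 bases over the measurable genes. Set beside the 2208 measurable genes under 2000 bases, whose median was 1654 units per 1000 bases, the 25 short members had a median percentile of 88.6.

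The signal per length was not even across the particle. Pros28.1, the alpha4 gene, was the highest at 24313 units per 1000 bases in mock, more than the next gene of its ring, Prosalpha5, at 11872. The largest non-ATPase subunit gene, Rpn2, whose product is a scaffold of the base, had 11309 and the ATPase gene Rpt3 had 10956. At the low end stood Rpt3R with 1316, at percentile 37.6, while the other copy, Rpt6R, had 3164, at percentile 73.3 and above the canonical Pros45 at 2923. Other gene models cover 91.3% of Pros45 and 100% of Rpt1, so the values of both are uncertain in origin. Among canonical subunits Prosalpha1 was the lowest at 2050, followed by Rpn12, a lid subunit, at 2405. The canonical subunits thus spanned a range of 11.9-fold in nascent signal per length. The ring medians were 6192 for alpha, 6909 for beta, 3901 for the ATPases and 4150 for the Rpn genes. Without errors per gene, neighbours in this order cannot be separated. Prosalpha1 has a close copy, listed as CG30382, between which reads may be split.

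**Figure D1:**
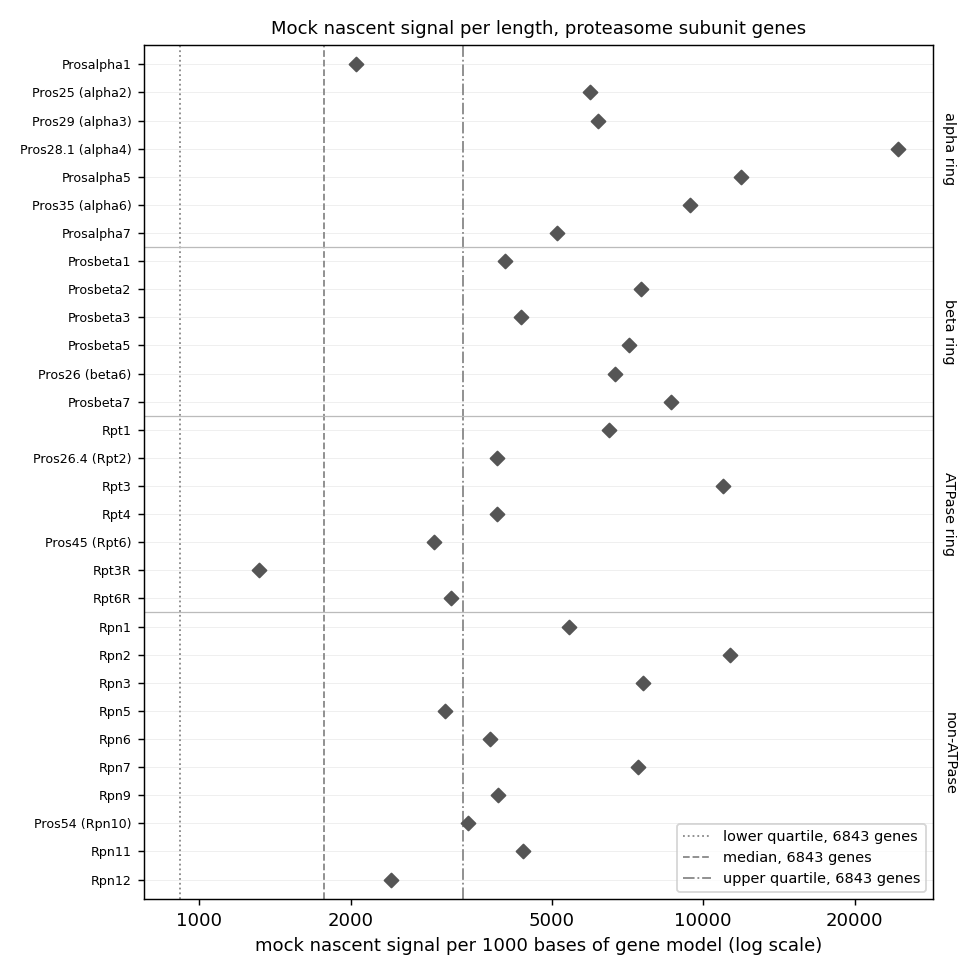
Mock nascent signal per 1000 bases of gene model (log axis) for each of the 30 proteasome genes, grouped from top to bottom by alpha ring, beta ring, ATPase ring and non-ATPase subunits; vertical lines mark the quartiles and the median of 6843 measurable genes. Pros28.1 stands highest at 24313, Rpt3R lowest at 1316, and 29 of the 30 genes lie right of the overall median of 1765.

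The first comparison of the series asked what Ph RNAi does to nascent transcription. No proteasome gene rose or fell in the libraries labelled Ph RNAi: 0 of 30 had a q under 0.05 in the authors' deposited table, against 2.48% of all 7624 genes, and the members' q ran from 0.186 to 0.665. By ratio alone, 24 of 30 were above mock, against 52.4% of all genes. Their median ratio was 1.17, against 1.02 over the measurable genes, and the ratios ran from 0.769 for Rpt3R to 1.58 for Pros54. At an unadjusted p under 0.05 the authors' deposited table held 1 of 30 members, against 16.5% of all genes.

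The members with the highest ratios belonged to the regulatory particle and to the alpha ring. Pros54 (Rpn10), a ubiquitin receptor of the proteasome, had a mean of 8537 signal units in the libraries labelled Ph RNAi, 6296 in those labelled Sce RNAi and 5397 in mock, a ratio of 1.58 after Ph RNAi with a q of 0.241 listed in the authors' deposited table. Rpn5, a lid subunit, had 9389, 6729 and 6372 in the same groups and order, with a Ph RNAi ratio of 1.47 and a q of 0.334 listed in the authors' deposited table. Pros26.4 (Rpt2), an ATPase that in yeast helps to open the gate of the core, had 9616 and 9730 under the labels Ph RNAi and Sce RNAi, against 6578 in mock. In both of these RNAi groups Pros26.4 was above mock by nearly the same amount, 1.46 and 1.48 times, with q of 0.41 and 0.495 listed in the authors' deposited table. The 2 ratios share the mock libraries, so their likeness is not independent evidence. Pros29 (alpha3), with 10885 after Ph RNAi, 8210 after Sce RNAi and 7548 in mock, was the member with the smallest p, 0.042, and its q was 0.186 in the authors' deposited table.

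Members below mock after Ph RNAi differed little from it, apart from Rpt3R. Rpt3R had 1798 signal units in the libraries labelled Ph RNAi, 2498 in those labelled Sce RNAi and 2338 in mock, with a Ph RNAi ratio of 0.769 and a q of 0.411 listed in the authors' deposited table. It was the 1 member with a ratio below 0.8, a mark that 24.8% of all genes lay under. The other members below 1 were Prosbeta2 at 0.917, Pros25 at 0.918, Rpn3 at 0.946, Prosbeta7 at 0.991 and Prosalpha7 at 0.994.

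By position in the particle, the medians of the Ph RNAi ratio were 1.15 for the alpha ring, 1.06 for the beta ring, 1.22 for the ATPases and 1.26 for the Rpn subunits. All 4 medians were above 1, and 5 of 7, 4 of 6, 6 of 7 and 9 of 10 genes were above mock in that order. Of the catalytic subunits, Prosbeta1, which cuts after acidic residues, had 4345 after Ph RNAi, 3439 after Sce RNAi and 3969 in mock. Prosbeta2, which cuts after basic residues, had 9426, 7180 and 10283 in that order. Prosbeta5, which cuts after hydrophobic residues, had 10197, 7958 and 8560. Under the label Sce RNAi all of these 3 catalytic genes had their lowest mean, while under Ph RNAi Prosbeta1 and Prosbeta5 lay above mock and Prosbeta2 below it, and the authors' deposited table listed no q under 0.05 for them.

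**Figure D2:**
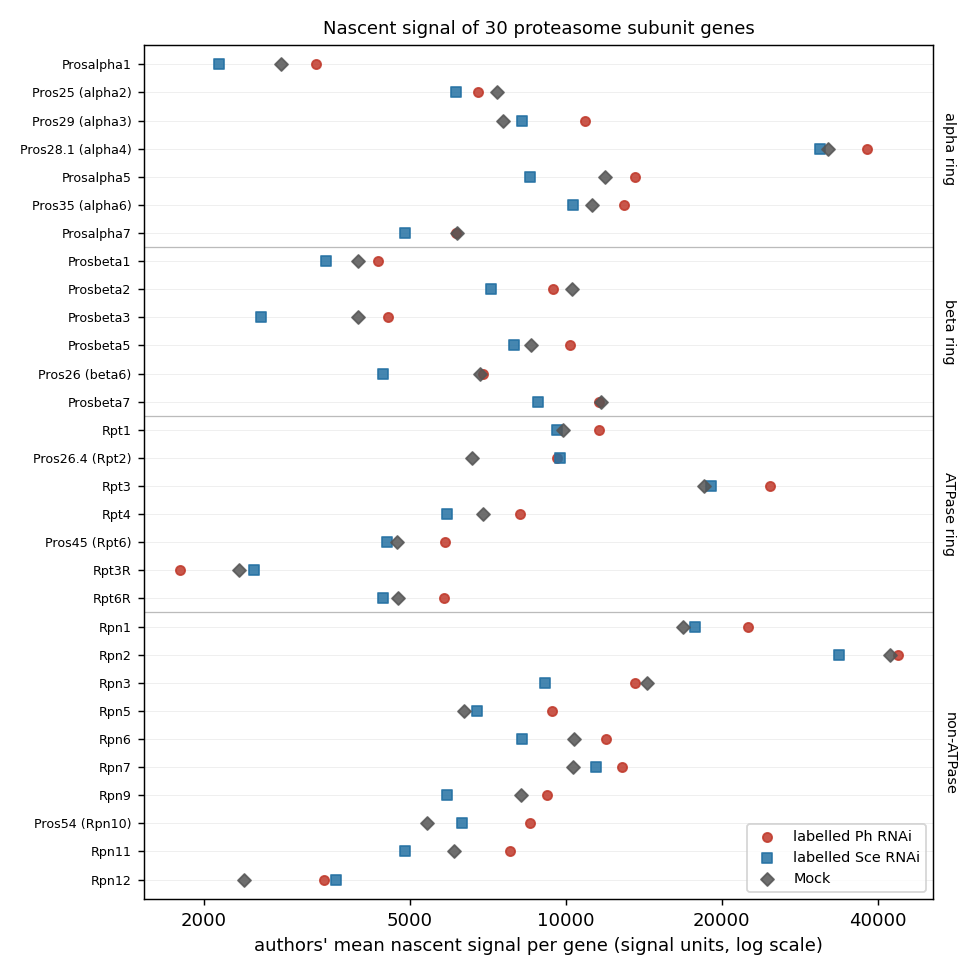
The authors' mean nascent signal per gene (log axis) for the 30 proteasome genes in the libraries labelled Ph RNAi (circles), those labelled Sce RNAi (squares) and mock (diamonds); replicate values and errors are not in the table. Rpn2 and Pros28.1 have the highest means, 43688 and 38053 after Ph RNAi, and the squares lie left of the diamonds for 21 of the 30 genes.

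For Sce, the other protein targeted in this series, again no proteasome gene rose or fell: by the authors' deposited table, 0 of 30 genes had a q under 0.05, against 0.118% of all genes, and 0 of 30 had an unadjusted p under 0.05, against 9.90% of all genes. The smallest p was 0.086, for Rpn3, with a q of 0.487 listed in the authors' deposited table. By ratio alone, 21 of 30 members were below mock, against 48.5% of all genes, with a median ratio of 0.893 against 1.01 over the measurable genes.

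The lowest ratio was that of Rpn3, a lid subunit, with 9122 signal units in the libraries labelled Sce RNAi and 14342 in mock, a ratio of 0.636. Prosbeta3, a beta subunit without a proteolytic site, had 2583 in the libraries labelled Sce RNAi against 3973 in mock, and Pros26 (beta6), also without one, had 4437 against 6818. Their ratios of 0.65 and 0.651 came with q of 0.637 and 0.529 listed in the authors' deposited table. All 6 beta genes were below mock under this label, with a median ratio of 0.727, as were 6 of 7 alpha genes with a median of 0.833. The ATPase genes, with a median of 0.974 and 4 of 7 below mock, and the Rpn genes, with a median of 0.929 and 5 of 10 below, lay nearer to mock.

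At the other end, Rpn12 and Pros26.4 stood apart from the rest under the label Sce RNAi. Rpn12 had 3596 after Sce RNAi against 2393 in mock, a ratio of 1.50 with a q of 0.647 listed in the authors' deposited table. Together with Pros26.4 it was above a ratio of 1.25, a mark passed by 24.6% of all genes, while the next member, Pros54, was at 1.17.

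Set directly against each other, the nascent means were higher in the libraries labelled Ph RNAi than in those labelled Sce RNAi for 27 of 30 members, against 50.4% of all genes. The median quotient was 1.30, with quartiles of 1.25 and 1.44 over the members, against a median of 1.00 over the measurable genes. A quotient above 1.25 was seen for 23 of 30 members and for 21.4% of all genes. The highest was that of Prosbeta3 at 1.76, with means of 4535 (labelled Ph RNAi) and 2583 (labelled Sce RNAi), followed by Prosalpha5 at 1.59, with 13571 and 8517, and Rpn11, the deubiquitinase of the lid, at 1.59, with 7791 and 4893. The 3 members below 1 were Pros26.4 at 0.988, Rpn12 at 0.947 and Rpt3R at 0.72. The authors' table has no test of this difference and no value per library, so it was not tested. The column totals of the 2 groups, 192278102 and 192180746, were nearly equal. That follows from the authors' scaling to a common total and gives no information on depth or on a global shift.

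**Figure D3:**
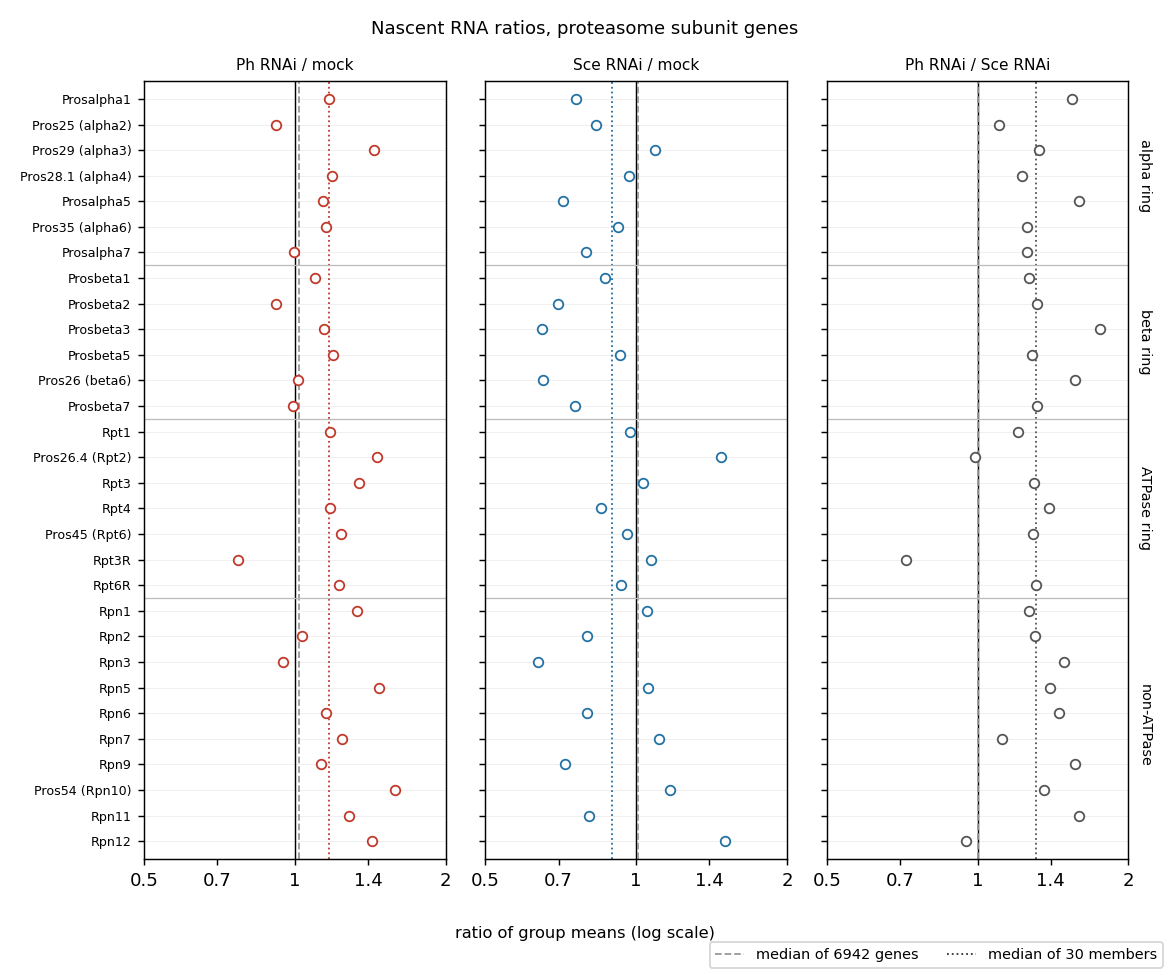
Nascent ratios of group means (log axes) of the 30 proteasome genes for Ph RNAi over mock, Sce RNAi over mock and Ph RNAi over Sce RNAi; dashed lines are the median of 6942 measurable genes and dotted lines that of the 30 members. The members' median lies at 1.17 in the left panel, 0.893 in the middle panel and 1.30 in the right panel, and no ratio to mock had a q under 0.05.

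Total RNA gave 1 change. Rpn7, a lid subunit, rose in cells labelled Ph RNAi to 1.45 times mock, with a p of 0.002 and a q of 0.04 listed in the authors' deposited table. It was the 1 member of 30 with a q under 0.05, against 3.88% of all genes. Benjamini-Hochberg adjustment of the deposited p over the whole table left 0, with a value of 0.058 for Rpn7. Those p have only 3 decimals, so a miss this narrow may depend on their rounding. In nascent RNA Rpn7 had means of 12831 under the label Ph RNAi, 11450 under Sce RNAi and 10337 in mock, with a Ph RNAi ratio of 1.24 and a q of 0.354 listed in the authors' deposited table. An opposite-strand gene, CG34376, overlaps 6.32% of its model, and no source used here says how strand was handled in counting.

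Below that threshold, many other members had total RNA ratios above 1 in cells labelled Ph RNAi. The ratio of 26 of 30 was above 1 in the authors' deposited table, against 55.6% of all genes, with a median ratio of 1.28 against 1.06 over the measurable genes. At an unadjusted p under 0.05, 10 of 30 were higher and 0 lower in the authors' deposited table, against 13.9% and 4.70% of all genes. The 10 were Rpn2 at 1.66 times mock, Prosbeta2 at 1.64, Rpn1 at 1.59, Pros25 at 1.56, Rpn12 at 1.48, Rpt4 at 1.46, Rpn6 at 1.45, Rpn7 at 1.45, Rpt3 at 1.41 and Pros54 at 1.31, and their q in the authors' deposited table ran from 0.04 for Rpn7 to 0.151 for Rpn6. At a q under 0.10 there were 6 of 30, all higher, against 7.92% of all genes that were higher. All 10 Rpn subunits were above 1, between 1.21 for Rpn3 and 1.66 for Rpn2.

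The members below mock in total RNA after Ph RNAi included 2 of the catalytic genes. Prosbeta1 was at 0.575 with a q of 0.238 and Prosbeta5 at 0.874 with a q of 0.484 listed in the authors' deposited table, while the third catalytic gene, Prosbeta2, was at 1.64 with a q of 0.122. Rpt3R was at 0.682 with a q of 0.28 and Prosalpha1 at 0.964 with a q of 0.568 listed in the authors' deposited table. Rpt6R, at 1.64 with a q of 0.191 listed in the authors' deposited table, lay on the other side of mock from Rpt3R.

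In cells labelled Sce RNAi, total RNA ratios were above 1 for 22 of 30 members, against 54.8% of all genes, with a median of 1.12 against 1.05 over the measurable genes. None passed the q threshold in the authors' deposited table, against 0.249% of all genes. An unadjusted p under 0.05 was listed for 5 members, all higher, against 9.27% of all genes that were higher: Pros25 at 1.48, Rpn2 at 1.48, Prosbeta3 at 1.39, Rpn12 at 1.33 and Pros26.4 at 1.22 times mock in the authors' deposited table. The highest ratio was that of Rpn1, a scaffold of the base, at 1.49 with a q of 0.267 listed in the authors' deposited table. The lowest ratios were 0.652 for Prosalpha5, 0.753 for Prosbeta1 and 0.787 for Pros28.1, with q of 0.338, 0.426 and 0.472 listed in the authors' deposited table.

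In cells labelled Pc RNAi, 18 of 30 members were above mock in total RNA, against 53.6% of all genes, and their median was 1.12 against 1.04. No member reached a q under 0.05 in the authors' deposited table, against 3.19% of all genes, and 4 had an unadjusted p under 0.05, all higher, against 11.8% of all genes that were higher. They were Pros26 at 1.77 times mock, Rpt4 at 1.51, Pros25 at 1.49 and Rpn12 at 1.42 in the authors' deposited table, with q of 0.204, 0.135, 0.127 and 0.151. Rpn1, Rpn5 and Rpt3R were at 1.60, 1.51 and 0.807, with q of 0.253, 0.277 and 0.546 listed in the authors' deposited table. Prosalpha5 and Rpt3 were the lowest at 0.649 and 0.727, with q of 0.422 and 0.35 listed in the authors' deposited table. The 3 total RNA comparisons share the mock libraries, so a ratio above 1 in several of them is not independent evidence.

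**Figure D4:**
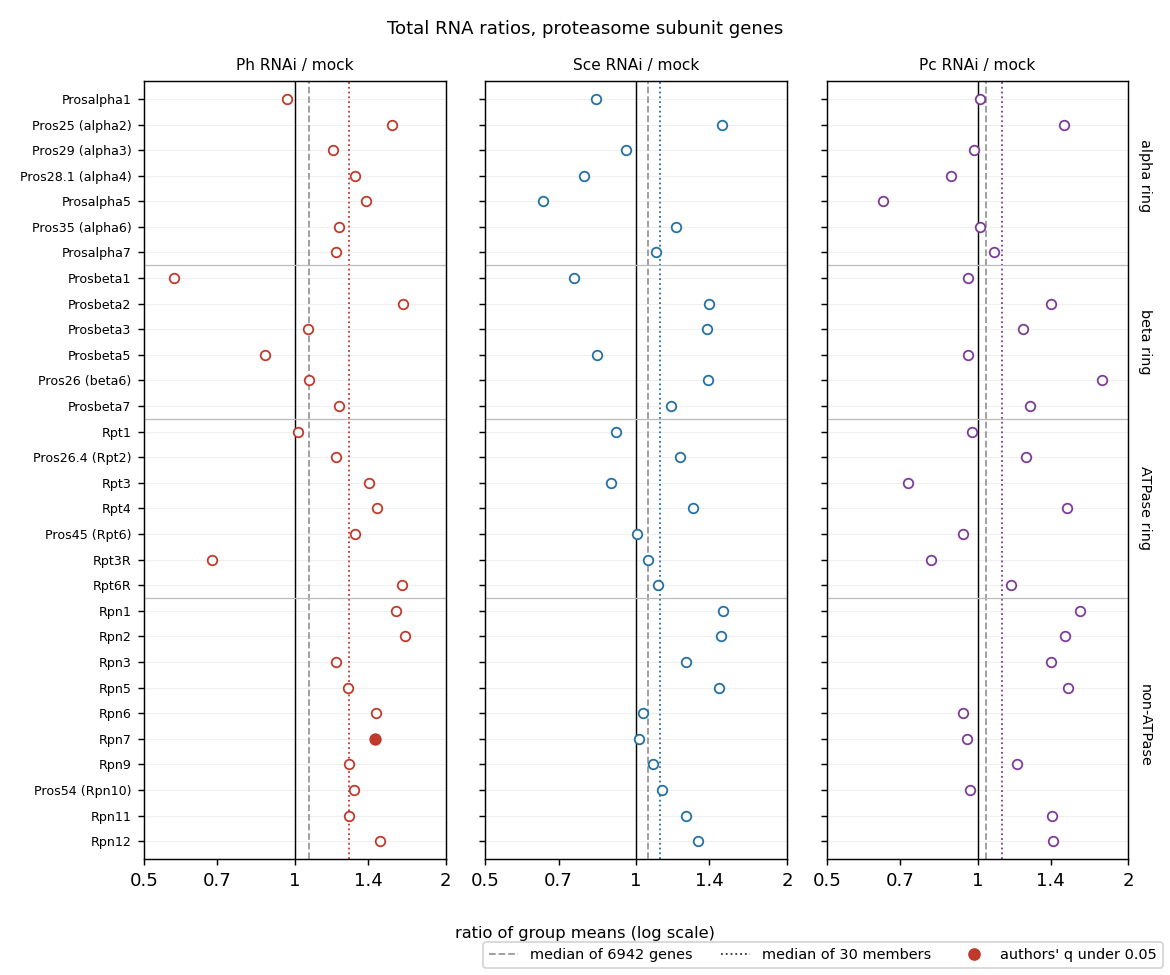
Total RNA ratios to mock from the authors' table (log axes) of the 30 proteasome genes after Ph, Sce and Pc RNAi; dashed lines are the median of 6942 genes with measurable nascent signal, dotted lines that of the 30 members, and the filled point has an authors' q under 0.05. Rpn7 after Ph RNAi, at 1.45, is the filled point, and Prosbeta1 at 0.575 is the lowest value of the left panel.

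The nascent and the total RNA ratios of the same label come from separate libraries. After Ph RNAi 21 of 30 members were above mock in both, against 33.9% of all genes. After Sce RNAi, 15 of 30 were below mock in nascent RNA and above it in total RNA, against 21.9% of all genes. Rpn2 was an example, with a Sce RNAi ratio of 0.796 in nascent and 1.48 in total RNA, and Pros26, with 0.651 and 1.39, and Prosbeta2, with 0.698 and 1.40, were others, each with a q of 0.05 or more in the authors' deposited table. The joint counts depend on the separate ones, 24 of 30 above mock in nascent and 26 of 30 in total RNA after Ph RNAi. After Sce RNAi these were 21 of 30 below and 22 of 30 above. A link between the RNA types beyond the separate counts was not tested, and none is read from the joint counts. Across the 30 members Spearman's rho between the nascent and total log2 ratios was 0.15 in the Ph RNAi comparison and -0.14 in that of Sce RNAi, against 0.36 and 0.29 across the 6942 measurable genes. These are descriptions across genes, all measured in the same nascent and the same total RNA libraries, and genes are not independent replicates.

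Other large complexes were set beside the proteasome. In nascent RNA after Ph RNAi the median ratios were 1.17 for the 30 proteasome genes, 1.09 for 85 cytoplasmic and 1.17 for 72 mitochondrial ribosomal protein genes, and after Sce RNAi they were 0.893, 1.10 and 1.09. In total RNA after Ph RNAi the medians were 1.28, 0.581 and 0.932 in the same order, after Sce RNAi 1.12, 0.752 and 0.984, and after Pc RNAi 1.12, 0.716 and 0.939. The quotient of the Ph RNAi and Sce RNAi nascent means had medians of 1.30, 1.01 and 1.03. No test of these differences between lists was made.

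**Figure D5:**
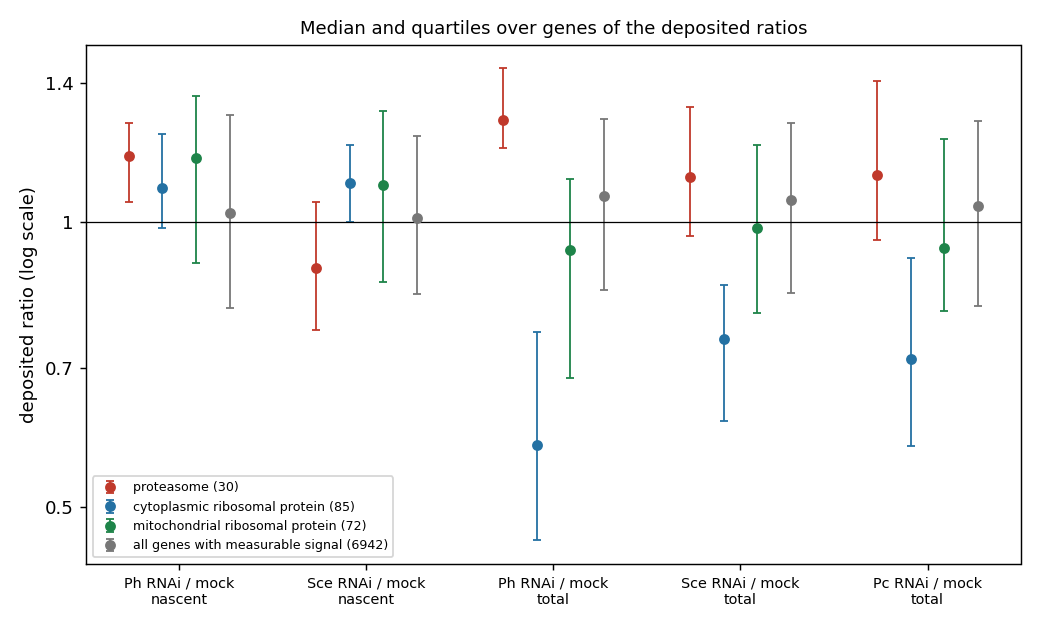
Median (point) and quartiles over genes (bars) of the deposited ratios to mock (log axis) for the 30 proteasome genes, 85 cytoplasmic and 72 mitochondrial ribosomal protein genes and 6942 measurable genes; bars are the spread over genes, not replicate error. The proteasome median is 1.28 in total RNA after Ph RNAi, where that of cytoplasmic ribosomal protein genes is 0.581.

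The remaining subunits stand in the table under other symbols and were not taken by the name rule. They are CG17331 (beta4), Tbp-1 (Rpt5), Mov34 (Rpn8), CG13349 (Rpn13) and CG13779 (Sem1), with the alpha1 copy CG30382. None of the 6 had a q under 0.05 in any of the 5 comparisons of the authors' deposited table, and an unadjusted p under 0.05 was listed for 0 in nascent RNA and, in total RNA, for 2 after Ph RNAi, 2 after Sce RNAi and 1 after Pc RNAi, all higher, against 13.9%, 9.27% and 11.8% of all genes that were higher. CG17331 had nascent means of 6433 after Ph RNAi, 3750 after Sce RNAi and 6220 in mock, so that this beta gene too was lowest under the label Sce RNAi, with a ratio of 0.603 and a q of 0.443 listed in the authors' deposited table. CG13349, a ubiquitin receptor, and Mov34, the partner of Rpn11 in the lid, were at 1.66 and 1.74 times mock in total RNA after Ph RNAi, with q of 0.051 and 0.065 listed in the authors' deposited table.

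Genes that serve the proteasome had 3 calls by q, all of them regulators in total RNA after Ph RNAi. Of 20 symbols listed for regulators and assembly factors, older and newer names of the same gene included, 16 were in the table, and of 33 symbols of the ubiquitin pathway 23 were. In nascent RNA none of these 39 genes rose or fell in the libraries labelled Ph RNAi or Sce RNAi by the q of the authors' deposited table. At an unadjusted p under 0.05 there were, after Ph RNAi, 2 regulators higher and 2 lower and 5 ubiquitin pathway genes higher and 0 lower, against 16.5% of all genes in either direction. After Sce RNAi there were 1 regulator higher and 2 lower and 0 ubiquitin pathway genes, against 9.90% of all genes in either direction. In total RNA after Ph RNAi 3 of 16 regulators rose and 0 fell, and 0 of 23 ubiquitin pathway genes did either, against 3.88% of all genes called in either direction. The 3 were CG5384, the Usp14 gene of a deubiquitinase that binds the proteasome, at 1.50 times mock (q 0.046), rngo, a ubiquitin-binding protein gene related to yeast Ddi1, at 1.45 (q 0.012) and TER94, the fly p97 segregase that extracts ubiquitinated proteins, at 1.49 (q 0.037) in the authors' deposited table. TER94 had the same deposited p as Rpn7, 0.002, for which Benjamini-Hochberg adjustment gave 0.058. CG5384 had a larger one, 0.003, so neither passes by that adjustment, which used p rounded to 3 decimals. In nascent RNA TER94 had 80529 after Ph RNAi, 62819 after Sce RNAi and 99816 in mock, so its nascent ratios were 0.807 and 0.629, with q of 0.427 and 0.394 listed in the authors' deposited table. In total RNA after Ph RNAi, an unadjusted p under 0.05 was listed for 5 of 16 regulators that were higher and 0 that were lower. Of the ubiquitin pathway genes 4 of 23 were higher and 2 lower, against 13.9% and 4.70% of all genes. After Sce RNAi and Pc RNAi 0 of the 39 genes passed in total RNA. At an unadjusted p under 0.05 the authors' deposited table held 5 of 16 regulators and 2 of 23 ubiquitin pathway genes that were higher after Sce RNAi, against 9.27% of all genes, and 0 that were lower. After Pc RNAi 4 of 16 and 3 of 23 were higher, against 11.8% of all genes, and 2 and 1 were lower, against 2.62% of all genes.

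The transcription factor gene cnc, whose CncC isoform activates proteasome genes in Drosophila, was near the threshold without passing it. It had nascent means of 140157 in the libraries labelled Ph RNAi, 132034 in those labelled Sce RNAi and 101037 in mock, so both RNAi groups lay above mock, by 1.39 and 1.31 times with q of 0.053 and 0.249 listed in the authors' deposited table. Its total RNA ratios were 1.30 after Ph RNAi, 1.35 after Sce RNAi and 1.23 after Pc RNAi, with q of 0.088, 0.209 and 0.292 listed in the authors' deposited table. REG, the gene of the PA28-type activator, had 6028, 6555 and 7542 in nascent RNA, with ratios of 0.799 and 0.869. Pomp, a chaperone of core assembly, had 3779, 4006 and 4241 in nascent RNA and a total RNA ratio of 0.449 after Pc RNAi with a q of 0.144 listed in the authors' deposited table. Uba1, the ubiquitin-activating enzyme gene, had 92450, 92340 and 116655 in nascent RNA, again with both RNAi groups below mock, and 1.57 times mock in total RNA after Ph RNAi with a q of 0.112 listed in the authors' deposited table. For cnc, REG, Pomp and Uba1 alike, both nascent ratios share the mock libraries, so the same direction in both is not independent evidence.

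The members lie on all large chromosome arms, with 4 on X, 3 on 2L, 8 on 2R, 5 on 3L and 10 on 3R, in the BDGP6 annotation. Their models had a median of 3 exonic blocks, after merging of overlapping exons, against 4 over the measurable genes. For 14 of 30 another gene model overlapped, against 55.9% of the genes in the table that have a model, and in 4 it covered over 10% of the length. These were Rpt1 at 100%, with CG17985 on the same strand, Pros45 at 91.3%, with CG1801 on the opposite strand, Rpn6 at 14.2% and Rpn9 at 12.6%. The nascent signal of Rpt1 and Pros45 is thus uncertain in origin.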

How the data were processed

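Chromatin of ML-DmBG3-c2 cells gave the nascent RNA, with removal of uncapped RNA and of residual mRNA and Ion Torrent libraries, per the labels' protocols. Replicates are numbered in the labels without word of separate cultures, so the authors' p may reflect technical spread only. Per the submitters' processing notes, tools included SAMtools and bedtools. The sources used here give no aligner, build, annotation, strand handling, statistical test or q method. The authors deposited 1 table of 7624 genes with the mean nascent signal per group, whose columns sum to between 191793598 and 192278102, so a global change of transcription cannot be seen. Depth per library is unknown. Ratios to mock, with p-values and q-values of each gene, were deposited with 3 decimals, per the file headers. Another 4 columns, of total RNA means, match no sample and were not used.

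Samples were grouped by title. Calls use the authors' q under 0.05, since no value per library allows another test, and no source used here states the set of genes behind that adjustment. Log2 ratios used a pseudocount of 581, which understates changes of low genes, and in total RNA the deposited ratio. Gene lengths came from Ensembl release 115 (BDGP6), matched by symbol or RefSeq synonym for 7517 of 7624 genes and all 30 members. Member names, lists and tests were chosen with earlier results of these data known. Genes named with values were catalytic subunits, members with p or q under 0.05, the 3 highest and lowest ratios of each comparison, called genes of the related lists, and cnc, REG, Pomp and Uba1; others were chosen after their values were seen. Python 3.11.15, pandas 2.3.3, numpy 2.4.6 and scipy 1.17.1 were used, and the adjustment was tested on simulated data.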

Additional observations from a re-analysis of the deposited data

How the results depend on the processing

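The number of proteasome genes called moved with the call rule. At an unadjusted p under 0.05 it was 1 in nascent RNA after Ph RNAi, and 10, 5 and 4 in the total RNA comparisons of Ph, Sce and Pc RNAi, in place of 0, 1, 0 and 0. In total RNA after Ph RNAi it was 6 at a q under 0.10 and 0 with Benjamini-Hochberg adjustment of the deposited p. That adjustment, of p rounded to 3 decimals, gives Rpn7 0.058 where the authors' q is 0.04. The quotient of Ph RNAi and Sce RNAi nascent means had a median log2 of 0.37, or 0.25 with a pseudocount 10 times larger, which shrinks ratios by construction, an alternative chosen after seeing the data. Without division by gene length the median percentile of mock signal was 58.4 in place of 86.7. The other medians kept their sign and moved by at most 0.1 in log2 under every pseudocount, filter, centring, normalization and member choice run. With quantile normalization 22 of 30 members were above mock after Ph RNAi and 8 of 30 after Sce RNAi, in place of 24 and 9. No paired analysis was possible because the table holds group means, and leaving out single replicates was likewise not run. Depth per library is not known, so what it limits could not be set.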
